A study of Mus musculus with 4 samples.

Results

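The transcriptome of HT22 cells that carried a control short hairpin RNA (shRNA, labelled sh-Ctrl) was described on its own, gene by gene, with no comparison between groups. HT22 is an immortalised line derived from mouse hippocampal neurons. The control cells were 1 of 4 samples in the study, the others being cells in which the long noncoding RNA Ntoco was knocked down (sh-Ntoco), cells with an empty vector and cells that overexpressed Ntoco (Lv-Ntoco). Members were chosen by label: of the 8 value columns in each table, the 2 named for the control shRNA were used, and they are called control library 1 and control library 2. All 16846 genes with a row were ranked by the mean of both libraries. Age, strain, passage, culture conditions, the sequence of the control hairpin and whether the cells were a clone are not stated in the labels. The labels list 1 sample for the group and do not say whether the libraries came from separate cultures, so the difference between them can be technical.

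HT22 cells divide in culture and are used in studies of oxidative cell death, because a high concentration of glutamate outside the cell blocks the exchange of glutamate for cystine and so deprives the cell of glutathione. Hippocampal neurons in the brain no longer divide. They carry a neuron-specific cytoskeleton of class III beta-tubulin, MAP2 and neurofilaments, release glutamate from synaptic vesicles, and sense it through AMPA and NMDA receptors. Fibroblasts, in contrast, are known for fibrillar collagens, vimentin and matrix-modifying enzymes.

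Total counts were 19172960 in control library 1 and 18633842 in control library 2. Levels are given as FPKM (fragments normalised to the length of the gene and to sequencing depth), which can be compared between genes because it is per length. The ranges used were absent (0 counts in both libraries), trace (a mean under 1 FPKM), low (from 1 to under 10), moderate (from 10 to under 100) and abundant (100 or more). A count of 0 over both libraries allows up to 3 counts, or 0.0794 CPM (counts scaled to library size), and this limit covers counting error only. In bulk RNA, fewer cells of a type and less RNA per cell cannot be told apart, so a low level can mean either. Values of genes with near-identical copies (the ribosomal protein genes, Ftl1 and Fth1, Hspa1a and Hspa1b) are uncertain, because the counting may have divided or dropped their reads. The labels give no strand setting for the counting, so overlapping genes on opposite strands cannot be told apart either.

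Most listed genes had some RNA, and a small set held most of the signal. There were 10248 genes at 1 FPKM or more, which is 60.8% of the 16846 with a row, and 1817 genes, or 10.8%, were absent. Another 4781 genes were at trace level, 4320 were low, 5233 were moderate and 695 were abundant. These are not shares of the genome, because many genes had no row. Protein-coding genes with a row numbered 16572, while RefSeq holds 21900. The median gene had 3.91 FPKM. The 695 abundant genes made up 4.13% of the genes, and they held 54.2% of the summed FPKM in control library 1 and 52.3% in control library 2. The 25 highest genes held 12.2% and 11.5%, and the 100 highest held 25.7% and 24.1%. The trace genes as a whole held 0.193% and 0.248%. The limits cut a smooth slope. At 1 FPKM, Cpm (0.811 and 1.19) and Gsdme (1.45 and 0.554) lay just inside, and Sat2 (1.19 and 0.814) and Dnmt3a (0.863 and 1.13) just outside. At 10 FPKM, Ankrd28 (11.1 and 8.93) lay just inside, and Sash1 (7.28 and 12.7) and Edem3 (9.47 and 10.5) just outside. At 100 FPKM, Trim28 (107 and 93.6) and Aplp2 (91.5 and 109) lay just inside, and Dlst (107 and 92.4) and Septin2 (94.5 and 105) just outside. Each of these genes was above its limit in 1 library and below it in the other, so membership near a limit is not stable.

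**Figure D1:**
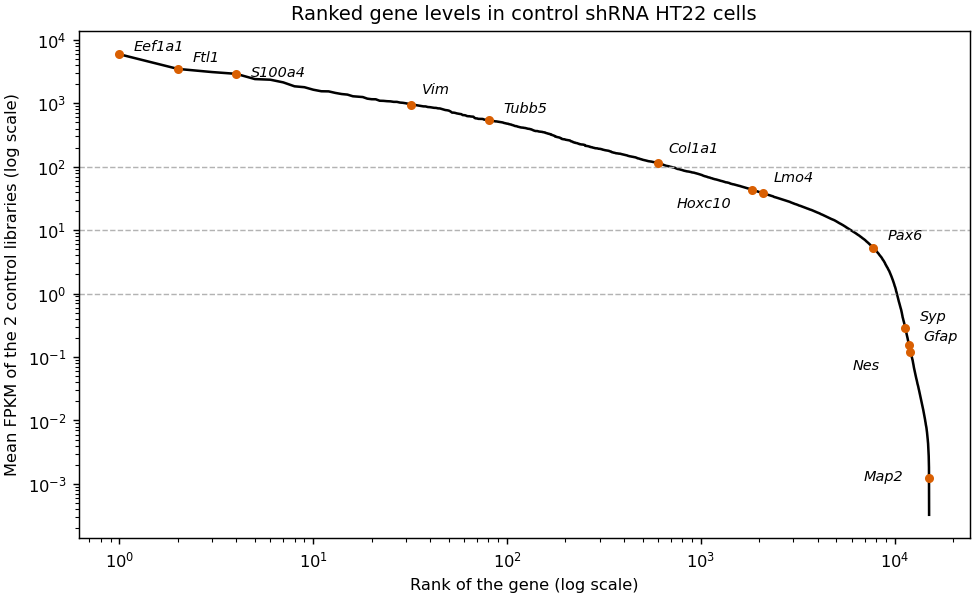
Genes with a mean above 0, ordered by the mean FPKM of both control libraries; both axes are logarithmic, and the dashed lines mark 1, 10 and 100 FPKM. Eef1a1 leads the ranking, Vim and Tubb5 lie above 100 FPKM, and the neuronal and glial markers Syp, Gfap, Nes and Map2 lie below 1 FPKM.

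The top of the ranking was made of translation, iron storage, cytoskeleton and chaperone genes. Eef1a1, which delivers aminoacyl-tRNA to the ribosome, was the highest gene at 6131 FPKM in control library 1 and 5713 in control library 2 (chr9:78478453-78481724, GRCm38.p6). The ferritin subunits, which store iron, came next: the light chain gene Ftl1 had 3392 and 3574 FPKM and the heavy chain gene Fth1 had 2725 and 3487. S100a4, a calcium-binding protein of motile and fibroblast-like cells, had 3697 and 2125 FPKM. These values place ferritin RNA among the highest in the cells, and of this group S100a4 differed most between the libraries. Actb, the cytoplasmic beta-actin gene, had 2576 and 2238 FPKM. Lgals1, which encodes galectin-1, had 1775 and 1497. S100a11, another calcium-binding protein, had 1350 and 808. The chaperones among the 25 highest genes were the cytosolic Hsp90ab1, with 1878 and 1216 FPKM, and Hspa5 of the endoplasmic reticulum, with 1285 and 1795. Ppia, a prolyl isomerase, had 1640 and 1273. Hspa5 was higher in control library 2, while Hsp90ab1 and Ppia were higher in control library 1. Ribosome-related genes filled the rest. Rack1 had 1271 and 1309 FPKM, and the translocation factor Eef2 had 1309 and 1431. Ribosomal protein genes took 13 of the 25 highest places and 51 of the 100 highest. Among the 13 were Rplp0, Rpl41, Rpl12, Rplp1, Rpl8, Rpl23a, Rpl7, Rpl32, Rps15, Rps14, Rps23 and Rpl35, from 2351 and 2356 FPKM for Rplp0 down to 1202 and 943 for Rpl35. All 83 listed cytosolic ribosomal protein genes had a median of 543 FPKM, and 73 were abundant. Of 34 listed translation factors, 34 were at 10 FPKM or more and 26 were abundant. Among all 16846 genes with a row, 5928 were at 10 FPKM or more and 695 were abundant. In the translation factor list, Tpt1 (852 and 843) and Pabpc1 (843 and 819) came next after Eef1a1 and Eef2.

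Neuronal genes were mostly near the floor. Across 8 lists of neuronal genes, 180 had a row, and 43 of these were at 1 FPKM or more, 14 at 10 or more and 1 at 100 or more. Of the 180, 39 were absent. Over all genes 60.8% were at 1 FPKM or more and 10.8% absent, and the median of the 180 was 0.04 FPKM against 3.91 over all genes. Of the 27 genes taken as defining markers of neurons, 9 had no row and were not analysed here, among them Rbfox3, Nefm, Snap25, Gria2, Grin1 and Grin2b. Of the other 18, 5 were absent (Tubb3, Nefl, Syt1, Gria1 and Slc17a6), and 2 were at 1 FPKM or more, among them Camk2a. The line was derived from hippocampal neurons, and most of the defining neuronal markers with a row were at or near 0 in these cells.

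Within the cytoskeleton list, 4 of 21 members with a row reached 1 FPKM. Tubb3, the class III beta-tubulin of neurons, had 0 counts in both libraries, and so did the neurofilament light chain gene Nefl. Map2, the dendritic microtubule-associated protein, had 0 FPKM in control library 1 and 0.0025 in control library 2. Whether the 4 members that were present are restricted to neurons was not tested, and Eno2 is used below as a neuron-enriched gene. Tubb2a had 39.0 and 17.4 FPKM, Map1b 19.4 and 30.7, Eno2 4.77 and 7.38, and Map1a 4.46 and 2.53. The 17 others were under 1 FPKM, including Gap43 of the growth cone at 0.0398 and 0.041.

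Synaptic genes followed the same pattern, with many at trace level and a few well above. Of 31 vesicle and release genes with a row, 7 were at 1 FPKM or more. The vesicle proteins Syp (0.357 and 0.216 FPKM) and Syn1 (0.0974 and 0.0501) were at trace level, and Syt1, the calcium sensor of release, was absent. Sncg, which encodes gamma-synuclein, was the exception at 200 and 174 FPKM. It was the only abundant gene of all 180 on the neuronal lists. Vamp2 had 15.9 and 24.7 FPKM, and Rab3a 3.78 and 2.46. Of 28 postsynaptic and adhesion genes, 10 were at 1 FPKM or more. The adhesion molecule L1cam had 29.4 and 31.3 FPKM, Arc 10.1 and 25.6, the scaffold Homer3 8.79 and 6.89, and the kinase gene Camk2a 7.57 and 7.61. Dlg4, which encodes the scaffold PSD-95, had 0.0799 and 0.14.

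Glutamate signalling was at the floor on the receptor side. Of 18 glutamate receptor genes with a row, Grik5, a kainate receptor subunit, was the only one at 1 FPKM or more, at 1.04 and 1.67, and 6 were absent, among them the AMPA receptor subunits Gria1, Gria3 and Gria4. Vesicular glutamate transport was also near 0: Slc17a7 had 0.0355 and 0.0365 FPKM and Slc17a6 was absent. The GABA-synthesising enzymes Gad1 (0 and 0.0109) and Gad2 (0.0181 and 0) were at trace level. Glul, which makes glutamine from glutamate in many cell types, was present at 17.2 and 11.7. Tph2, known for serotonin synthesis in the brainstem, had 4.31 and 4.62 FPKM, and the amino acid transporter Slc38a1 had 2.90 and 4.48. Of 18 other transmitter and neurotrophin genes, 3 reached 1 FPKM, among them the neurotrophin gene Bdnf (3.88 and 7.04) and the GABA receptor gene Gabbr1 (1.93 and 2.68). Of 23 voltage-gated channel genes, 3 reached 1 FPKM: Hcn2 (21.9 and 21.3), Cacna1a (4.585 and 4.597) and Cacnb1 (1.07 and 1.42). The sodium channel genes Scn1a (0 and 0.0312), Scn2a (0.293 and 0.277) and Scn3a (0.00515 and 0.00794) did not.

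**Figure D2:**
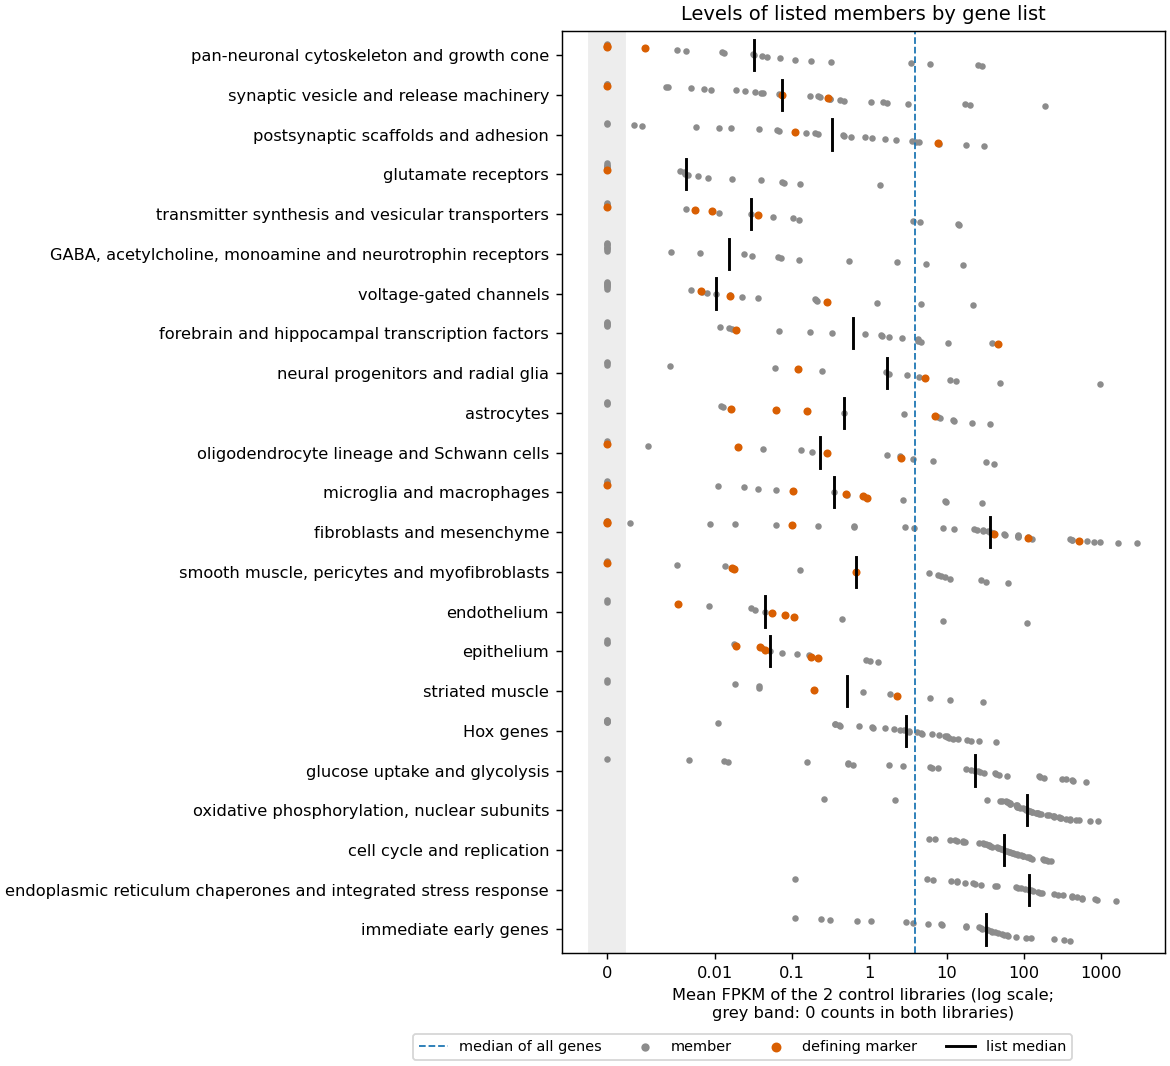
Mean FPKM of both control libraries (log scale) for each listed gene, 1 row of points per gene list; orange points are defining markers, black bars are list medians, the grey band holds genes with 0 counts in both libraries and the blue dashed line is the median of all genes (3.91 FPKM). The medians of the neuronal, glial, endothelial and epithelial lists lie to the left of the dashed line, and those of the fibroblast, metabolic, cell cycle and stress lists shown lie to its right.

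Where a protein family has a neural and a broadly expressed member, the broad member was usually the higher. In 17 of 22 pairs both genes had a row, and the broad gene was higher in both libraries in 16. For beta-tubulin, Tubb3 was absent and Tubb5 had 734 and 339 FPKM. The neuronal glucose transporter gene Slc2a3 had 0 and 0.00915 FPKM and the broad Slc2a1 had 42.8 and 42.2. Celf4 had 0 and 0.0221 FPKM and Celf1 had 18.0 and 20.3. Map2 was set against Map4, at 17.8 and 19.1. In these 4 pairs the neuron-enriched gene was at 0 or at trace level, so no ratio is given. Among enzymes, Eno1 (639 and 620) exceeded Eno2 by 134-fold and 83.9-fold. Ldha (162 and 147) exceeded Ldhb (23.1 and 30.8) by 7.02-fold and 4.78-fold. Aldoa (363 and 344) exceeded Aldoc (6.75 and 8.52) by 53.7-fold and 40.4-fold. Aldoc is on the astrocyte list, so that pair does not set a neuronal gene against a broad one. The splicing repressor Ptbp1, which gives way to Ptbp2 as neurons form, had 259 and 274 FPKM, and Ptbp2 had 8.94 and 9.47. Smaller gaps were found for Camk2d (17.7 and 16.1) over Camk2a, at 2.34-fold and 2.12-fold, for Dnm2 (19.9 and 19.6) over Dnm1 (3.85 and 4.82), and for Vamp3 (109 and 89.4) over Vamp2. In other pairs Sypl (20.4 and 21.5) exceeded Syp, Kif5b (31.5 and 35.6) exceeded Kif5a (0.809 and 1.86), and Gnai2 (224 and 166) exceeded Gnao1 (14.9 and 20.2). In 5 further pairs the neuronal gene (Snap25, Elavl4, Rbfox3, Actl6b or Eef1a2) had no row and was not analysed here.

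**Figure D3:**
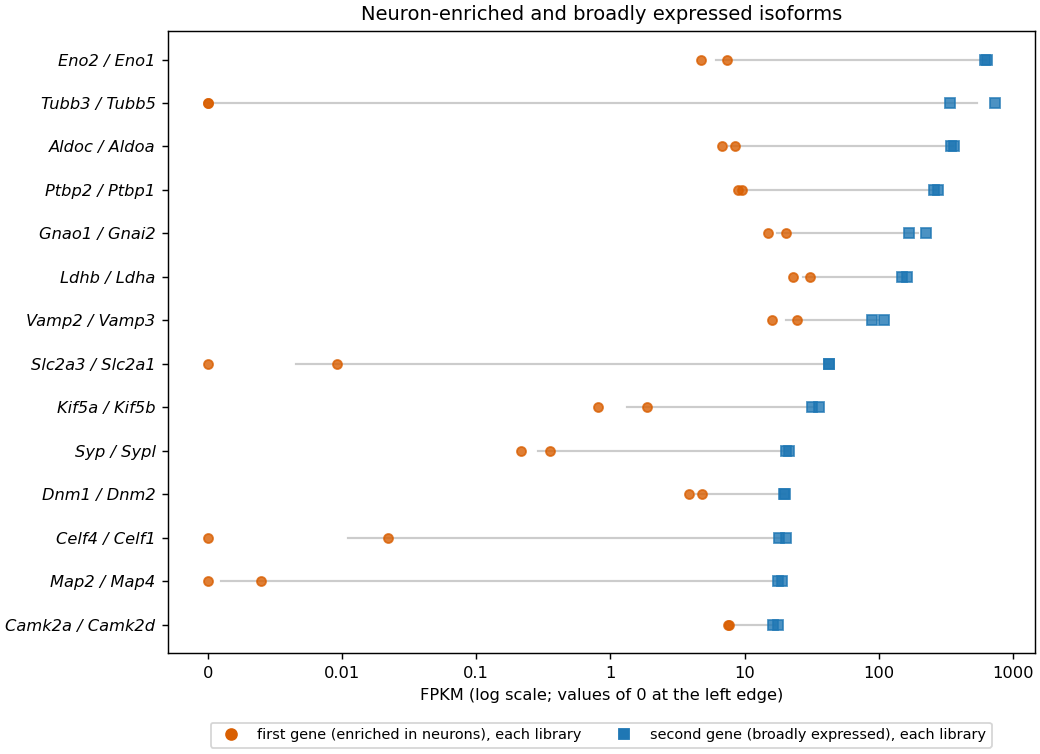
FPKM in each control library (log scale) for 14 of the pairs of a neural gene (orange circles) and a broadly expressed gene of the same family (blue squares), with a grey line joining the means. Of the genes drawn as circles, Aldoc is on the astrocyte list. The squares lie to the right of the circles in the 14 pairs shown.

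Some patterning factors of both the forebrain and the trunk were present. Of the forebrain factors, Lmo4 had 29.5 and 47.3 FPKM, Nfix 10.4 and 10.5, and Meis2 3.53 and 5.81. Of 24 forebrain and hippocampal factors with a row, 11 (45.8%) were at 1 FPKM or more, below the 60.8% of all genes. Absent were 5 of the 24, against 10.8% of all genes. The list median was 0.61 FPKM, against 3.91 over all genes. Tbr1, a factor of glutamatergic cortical neurons, had 0.0185 and 0.019 FPKM, and the hippocampal factors Neurod1 and Prox1 had no row. Hox genes, which pattern the trunk and hindbrain and are off in the forebrain, were present beside these. Of 34 Hox genes with a row, 23 (67.6%) were at 1 FPKM or more, near the 60.8% of all genes, and 9 were at 10 or more. Their median was 3.01 FPKM, below that of all genes. The highest were Hoxc10 (45.3 and 41.3 FPKM, chr15:102966796-102971898), Hoxb9 (19.8 and 33.2), Hoxa10 (20.2 and 21.5) and Hoxa9 (18.8 and 17.9). Levels differed with position along the clusters. In paralogue groups 1 to 5, 8 of 13 genes reached 1 FPKM and the median was 1.12. Groups 6 to 10 had 14 of 15 at 1 FPKM or more, 8 at 10 or more and a median of 10.2. In groups 11 to 13 the exception was Hoxb13 (7.696 and 7.997), and the median of 6 genes was 0. All 4 clusters took part, with 7 of 10 genes of HoxA, 8 of 9 of HoxB, 4 of 8 of HoxC and 4 of 7 of HoxD at 1 FPKM or more. The sharpest step was in HoxC, from Hoxc10 to Hoxc11 with 0 counts. Hoxd9 (8.35 and 10.5) and Hoxd10, also at 0 counts, formed a similar step in HoxD. Of the 1155 genes that the deposited table marks as transcription factors, 722 (62.5%) were at 1 FPKM or more, and 13 were abundant. That share is near the 60.8% of all genes. Atf4, which drives amino acid synthesis under stress, led them on the mean of both libraries, at 594 and 542 FPKM. Egr1, at 84.1 and 566, was higher than Atf4 in control library 2.

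**Figure D4:**
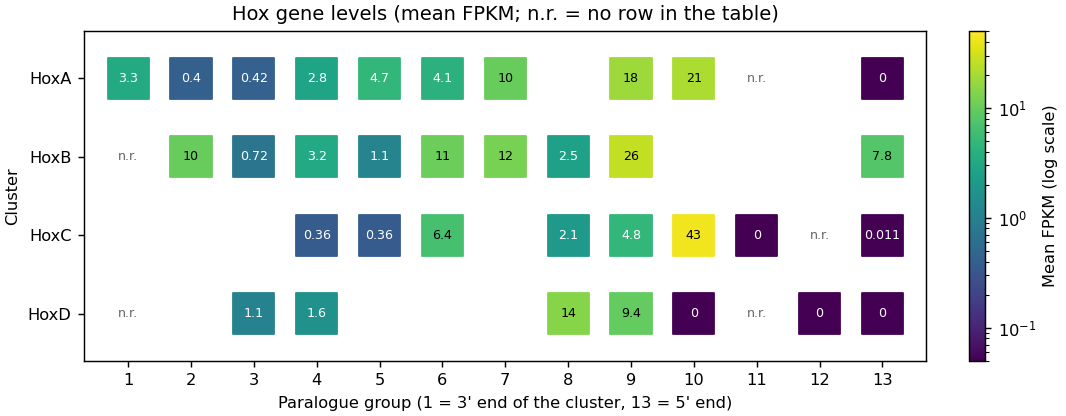
Mean FPKM of both control libraries for each Hox gene with a row, placed by cluster (vertical) and paralogue group (horizontal), with colour on a log scale and n.r. for genes with no row. The highest values fall in paralogue groups 9 and 10, and groups 11 to 13 are at 0 or near it except Hoxb13.

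Progenitor and glial markers were uneven. Of 16 progenitor genes with a row, 9 (56.25%) were at 1 FPKM or more, near the 60.8% of all genes. Vim, the intermediate filament of progenitors and mesenchyme, had 1216 and 689 FPKM, Hes1 10.998 and 86.9, Gas1 11.6 and 14.6, and Sox9 7.95 and 14.2. The radial glial factor Pax6 had 4.72 and 5.88 FPKM, while the progenitor filament Nes had 0.127 and 0.114, and Sox2 had no row. Of 52 glial genes, 19 (36.5%) were at 1 FPKM or more, 7 at 10 or more and 10 absent. Over all genes 60.8% were at 1 FPKM or more and 10.8% absent. The glial median was 0.31 FPKM. In the astrocyte list Clu (35.0 and 36.5), Gja1 (21.1 and 20.8), S100b (13.6 and 11.5) and Acsbg1 (12.6 and 11.7) were the highest. Its defining markers were Aldh1l1 at 6.78 and 7.21, Gfap at 0.128 and 0.185, and the glutamate transporters Slc1a2 (0.027 and 0.0952) and Slc1a3 (0.00783 and 0.0242). So the astrocyte list was split, with 8 of 17 genes (47.1%) at 1 FPKM or more. The defining marker Aldh1l1 was present, as were S100b, Acsbg1, the secreted chaperone gene Clu and the gap junction gene Gja1. Clu and Gja1 are also found in other cell types. The astrocyte filament and glutamate uptake genes were near 0. In the oligodendrocyte and Schwann cell list Pmp22 had 40.2 and 42.2 FPKM, Cspg4 38.6 and 24.8, and Pdgfra 6.11 and 7.10. Mbp had 2.64 and 2.41, Sox10 0 and 0.0396, and Mog was absent. In the microglial list, where 4 of 19 genes were at 1 FPKM or more (7 by control library 1 alone), the lysozyme gene Lyz2 had 9.42 and 9.85, Cd68 9.16 and 9.90, and Cd14 2.76 and 2.68. Its defining markers Csf1r (1.13 and 0.706), Tmem119 (1.07 and 0.562), Cx3cr1 (0.181 and 0.815) and Aif1 (0.102 and 0.105) had means under 1 FPKM, and Ptprc was absent.

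Mesenchymal and fibroblast genes were among the most abundant of all. Of 46 with a row, 33 (71.7%) were at 1 FPKM or more, 30 at 10 or more and 13 at 100 or more, with a median of 36.1 FPKM against 3.91 over all genes. S100a4, Lgals1 and Vim led the list, followed by the collagen chaperone gene Serpinh1 at 880 and 721. The 2 chains of type I collagen were both abundant. Col1a2 had 503 and 533 FPKM (chr6:4505618-4541543, GRCm38.p6) and Col1a1 had 118 and 107. Pdgfrb, a growth factor receptor of fibroblasts and pericytes, had 39.3 and 43.4. Other members were not there: Col3a1, the partner collagen of type III, had 0.0469 and 0.154 FPKM, and the matrix proteoglycans Dcn and Lum were absent, as were Mgp, Fap and Lox. The list thus held both high and absent defining markers (3 of 6 at 10 FPKM or more and 2 of 6 at 0 counts), and the cells carried no complete fibroblast set. The smooth muscle list had 8 of 17 genes (47.1%) at 1 FPKM or more, against 60.8% of all genes. Cald1 was at 59.7 and 63.1 FPKM and Tpm1 at 31.0 and 25.3, whereas Acta2 had 0.755 and 0.568, Myh11 0.00695 and 0.0286, Tagln 0.0329 and 0, and Cnn1 was absent. Eng, a coreceptor for TGF-beta, was the highest endothelial list gene at 117 and 98.6 FPKM, but the defining endothelial genes Cdh5, Tek, Pecam1 and Kdr were all under 0.12 FPKM on the mean of both libraries. Of 17 epithelial genes, 2 were at 1 FPKM or more (0 by control library 2 alone), Krt7 (1.68 and 0.914) and Cdh3 (1.05 and 0.984), and Krt14, Cdh1, Krt8, Epcam and Krt18 were at trace level. In the striated muscle list, cardiac troponin T gene Tnnt2 had 33.8 and 25.8 FPKM, Des 10.1 and 11.7, and Pax3 5.31 and 6.84, while the defining genes Acta1 (2.03 and 2.53) and Myh3 (0.12 and 0.257) were lower.

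The cytoskeletal families were narrow in the genes they used. Tubb5, Tubb4b (372 and 169 FPKM) and Tubb6 (261 and 162) made most beta-tubulin RNA, followed by Tubb2a. Tubb4a (1.195 and 1.15), Tubb2b (0.163 and 0.0558) and Tubb1 (0 and 0.0536) were low or at trace level. Alpha-tubulin came from Tuba1b (571 and 355), Tuba1c (165 and 110), Tuba1a (169 and 88.8) and Tuba4a (93.2 and 45.6), and the other 4 genes were under 1 FPKM. Among the actins, Actg1 (332 and 335) came after Actb, and the muscle actins Acta1 and Actg2 (1.11 and 2.49) were low. Of 16 intermediate filament genes, 5 were at 1 FPKM or more: Vim, Lmna (157 and 95.6), Lmnb1 (73.8 and 44.2), Lmnb2 (26.8 and 21.0) and Des. The other listed filament genes were at trace level or absent, among them Nefl and Ina of neurons, Gfap of astrocytes and Krt14, Krt8 and Krt18 of epithelia. Of 13 classical cadherin genes, 2 reached 1 FPKM on the mean, Cdh24 (3.68 and 5.17) and Cdh3. Cdh2, the N-cadherin of neurons and fibroblasts, had 0.0838 and 0.0377, and Cdh11 of mesenchyme had 0.00839 and 0.00863. Epithelial Cdh1 had 0.165 and 0.182.

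Metabolic genes were broadly high. Of 200 on 6 lists, 185 (92.5%) were at 1 FPKM or more, 169 at 10 or more and 64 at 100 or more. Among all 16846 genes with a row, 10248 (60.8%) were at 1 FPKM or more, 5928 at 10 or more and 695 (4.13%) at 100 or more. The median of the 200 was 57.8 FPKM, against 3.91 over all genes. The nuclear subunits of oxidative phosphorylation had the highest median of these lists at 108 FPKM, with 47 of 49 at 10 or more. Atp5b had 884 and 904 FPKM, Atp5a1 706 and 718, Cox4i1 534 and 484, and Cox8a 449 and 490. In glycolysis 23 of 31 genes were at 1 FPKM or more, led by Eno1, Pkm (441 and 411), Pgk1 (446 and 401) and Aldoa. Gapdh had only 29.5 and 30.6 FPKM. This gene was picked out after its values were seen, and it has many near-identical pseudogenes, so its value is uncertain. In the citric acid cycle list, 34 of 35 were at 1 FPKM or more, and Mdh2 (513 and 439), Sdhd (169 and 155) and Cs (161 and 146) were among the highest. Serine synthesis stood high within the pentose phosphate and folate list, in which all 27 genes were at 1 FPKM or more. Phgdh, which starts serine synthesis from a glycolytic intermediate, had 397 and 462 FPKM, and the next enzyme gene Psat1 had 351 and 360. Asns, for asparagine synthesis, had 202 and 281, and the mitochondrial aminotransferase gene Got2 had 184 and 187. In sterol and fatty acid synthesis 27 of 28 genes were at 1 FPKM or more, with Scd2 (375 and 419), Fdps (256 and 202), Cyp51 (255 and 162) and Scd1 (114 and 130) the highest. Plin2, which coats lipid droplets, had 190 and 193 and was the only abundant gene among 31 of fatty acid oxidation and lipid storage. After it came Hadha (92.5 and 92.2), Acadl (94.0 and 88.8) and Etfb (86.9 and 82.2). All 45 cell cycle and replication genes were at 1 FPKM or more and 43 at 10 or more, led by Rrm2 (297 and 155), Pcna (226 and 180), Ccnd1 (231 and 150) and Cdk4 (191 and 168).

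Chaperone genes were mostly moderate or abundant. Of 35 cytosolic heat shock and chaperonin genes, 32 were at 1 FPKM or more and 17 were abundant. For comparison with this and the next lists, 60.8% of all 16846 genes were at 1 FPKM or more. Of those 16846 genes, 5928 were at 10 FPKM or more and 695 (4.13%) were abundant. Hspa8, the constitutive HSP70, had 1320 and 425 FPKM, and the mitochondrial chaperones Hspd1 and Hspa9 had 487 and 509 and 435 and 500. The inducible HSP70 genes Hspa1a (0.391 and 0.23) and Hspa1b (2.32 and 1.07), both named after their values were seen, were among the lowest of the list. In the endoplasmic reticulum list, 32 of 33 genes were at 1 FPKM or more and 18 were abundant. After Hspa5 came Calr (1042 and 741), Hsp90b1 (862 and 796) and Pdia6 (611 and 526). Oxidant defence genes were also high, with 36 of 39 at 10 FPKM or more. The metallothioneins Mt2 (363 and 887) and Mt1 (286 and 460), the peroxiredoxin gene Prdx1 (573 and 447) and the superoxide dismutase gene Sod1 (373 and 327) led this list. The p53 list had 25 of 28 genes at 1 FPKM or more, with Gadd45a (64.4 and 286), Bax (126 and 125), Gdf15 (88.7 and 137) and Trp53 itself (82.4 and 82.9) the highest. Hypoxia targets were moderate, with 15 of 24 at 10 FPKM or more and none at 100 or more on the mean of both libraries. Ndrg1 had 32.9 and 121 FPKM, Hif1a 63.5 and 86.2, Vegfa 47.8 and 99.4, and Ero1a 44.2 and 102. Hif1a was thus present, and Epas1, which encodes the related HIF-2 alpha, had 0 counts in both libraries.

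The title of the study names ferroptosis, Hnrnpab, NF-kB and Lcn2, and their control levels were as follows. Of 34 ferroptosis and iron genes, 27 (79.4%) were at 1 FPKM or more, against 60.8% of all genes. Gpx4, which repairs lipid peroxides, had 239 and 224 FPKM. Hnrnpab had 310 and 194 FPKM. The ferritin genes were the highest of this list, whereas Slc40a1, the iron exporter gene, had 0 counts in both libraries. Cystine and glutamate exchange relies on a light and a heavy chain. The light chain gene Slc7a11 had 2.45 and 4.59 FPKM, and the heavy chain gene Slc3a2, which also serves other transporters, had 39.1 and 54.9. Slc7a5, another partner of that heavy chain, had 158 and 206, and the neutral amino acid carriers Slc1a5 (51.5 and 90.0) and Slc1a4 (24.3 and 40.1) were moderate. The excitatory amino acid transporters Slc1a1 (0 and 0.0861), Slc1a2, Slc1a3 and Slc1a7 (0.0765 and 0.173) were at trace level. Among 37 NF-kB genes and cytokines, 24 (64.9%) were at 1 FPKM or more, close to the 60.8% of all genes. Csf1, a macrophage growth factor, had 741 and 668 FPKM, the chemokine genes Ccl2 and Ccl7 had 253 and 58.0 and 137 and 46.0, and Rela, a subunit of NF-kB, had 38.9 and 42.0. Lcn2, an iron-binding secreted protein, had 17.5 and 20.4, a moderate level with little difference between the libraries. Among imprinted genes Gnas (212 and 230), Slc38a4 (52.4 and 55.4) and Igf2r (42.0 and 59.0) were the highest, and Igf2, Mest and Phlda2 were absent. None of the 8 Y-linked genes looked for had a row.

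The 2 control libraries differed beyond counting noise, and some gene lists differed more than others. Over 10498 genes with at least 100 counts in all, the chi-square per gene was 62.1, where 1 would be counting noise alone. Among the 5928 genes at 10 FPKM or more, the median absolute log2 ratio between the libraries was 0.20 and the 90th percentile was 0.56. In this set 91 genes were at least 2-fold higher in control library 2 and 46 in control library 1. Over all 10248 genes at 1 FPKM or more, 290 (2.83%) were at least 2-fold higher in control library 2 and 122 (1.19%) in control library 1, and the median log2 ratio of library 2 to library 1 was 0.04. With a single sample label there is no test of these differences.

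Immediate early genes, which are transcribed within minutes of a growth signal, were the list furthest from that background. Of 27 at 1 FPKM or more, 25 were higher in control library 2, 17 of them at least 2-fold, and the median log2 ratio was 1.34. Fos had 19.7 FPKM in control library 1 and 224 in control library 2, an 11.4-fold ratio (chr12:85473890-85477274, GRCm38.p6). Fosb had 7.18 and 66.5, Egr1 84.1 and 566, Zfp36 8.42 and 43.2, and Btg2 3.06 and 32.0. Ccn1, a matrix protein gene that is both immediate early and mesenchymal, had 119 and 668. Myc had 113 and 383, and Ier2 had 56.1 and 153. The members in the other direction were Fosl1 (76.0 and 45.2) and Maff (10.1 and 6.90). For this list the levels of the 2 libraries are thus better read separately than as a mean. Hes1, a Notch target described above, differed in the same direction.

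Serum response factor, encoded by Srf (29.9 and 38.7 FPKM), switches on many immediate early genes through the CArG box, a motif of CC, then 6 bases that are each A or T, then GG, which reads the same on both strands. The 250 bases before each RefSeq start were searched for it and for the cyclic AMP response element TGACGTCA, which also reads the same on both strands. Of the 31 immediate early genes with a row, 24 had a start in the sequence table. This is 77.4%, too few for a share over the list. The box was present before 4 of the 24, and 1.47% of all 32851 starts in the table had it. The first is a count of genes over any of their starts and the second a share of single starts. These units are unlike, so the size of the contrast is not read from them, and this also holds for the response element. These windows of 30 bases, on the GRCm38.p6 assembly and in the direction of transcription, are shown because they belong to the list that differed most between the libraries, with the box in capitals.
Egr2, start 1 (chr10:67537484-67537513, plus strand): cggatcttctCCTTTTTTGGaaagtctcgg
Egr2, start 2 (chr10:67537787-67537816, plus strand): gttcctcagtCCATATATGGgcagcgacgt
Dusp5 (chr19:53529058-53529087, plus strand): aatacCCATATTTGGCCTTATATGGgcact
Srf (chr17:46556215-46556244, minus strand): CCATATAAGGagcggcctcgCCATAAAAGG
Zfp36 (chr7:28379267-28379296, minus strand): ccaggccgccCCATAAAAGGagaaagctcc
The boxes lie 58 to 82 bases before the start in all 4 genes, and Dusp5 and Srf carry 2 each. Egr2 had 0.696 FPKM in control library 1 and 6.56 in control library 2, Dusp5 2.90 and 14.4, and Zfp36 5.13-fold more in control library 2, whereas Srf differed little. Fos, Fosb and Ccn1 had a start in the table and no box within these 250 bases, which says only that these letters are not in the window. The element TGACGTCA was found before Btg2, Dusp1 and Maff, 3 of the 24 genes, and before 1.55% of all starts, and 0 genes of the list held both motifs. A match is a description of sequence and not of binding.

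Other lists differed less between the libraries and in either direction. In the glutamate and cystine transporter list, 5 genes were at 1 FPKM or more. Slc7a11 and Slc3a2 form the cystine and glutamate exchanger described above, and Slc7a5, Slc1a5 and Slc1a4 are the other amino acid transporters named there. All 5 were higher in control library 2 (median log2 ratio 0.72). In the p53 list 20 of 25 genes were higher in that library (median log2 ratio 0.36), in the hypoxia list 13 of 19 (0.39), in the endoplasmic reticulum list 21 of 32 (0.22) and in the Hox list 19 of 23 (0.22). Over all genes 5636 of 10248 were higher in control library 2. In the opposite direction, 1 of 45 cell cycle genes, 4 of 27 sterol and fatty acid genes, 7 of 32 heat shock genes and 9 of 82 ribosomal protein genes were higher in control library 2. Their median log2 ratios were -0.32, -0.48, -0.22 and -0.18. Of 5 intermediate filament genes 1 was higher in control library 2, with a median of -0.71. The tubulins had medians of -1.12 over 5 beta-tubulin and -0.81 over 4 alpha-tubulin genes, with 0 of these 9 higher in control library 2. So control library 2 had more RNA of the immediate early and p53 lists and less of the cell cycle, sterol and tubulin lists than control library 1. Whether these differences share a source was not tested.

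Single genes with the widest ratios came from several groups. Cfap77, a cilium and flagellum protein gene, had 3.42 FPKM in control library 1 and 59.0 in control library 2. Prr32 (3.52 and 19.8) and the lipid transfer gene Stard5 (8.22 and 41.6) were also among the 10 widest in this direction. Toward control library 1 the widest were the chemokine gene Ccl2 at 4.36-fold, 1700012B09Rik (21.2 and 5.38), the water channel gene Aqp1 (78.9 and 24.3) and the collagen gene Col8a1 (63.3 and 19.8). After these came Hspa8 at 3.10-fold, Angpt4 (18.5 and 6.15), Pcolce2 (16.9 and 5.64), Ccl7 at 2.98-fold, Micall2 (15.1 and 5.13) and the sterol enzyme gene Idi1 (22.4 and 7.67). Aqp1, Col8a1 and Pcolce2 are matrix or membrane genes, and they were moderate on average in these cells.

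**Figure D5:**
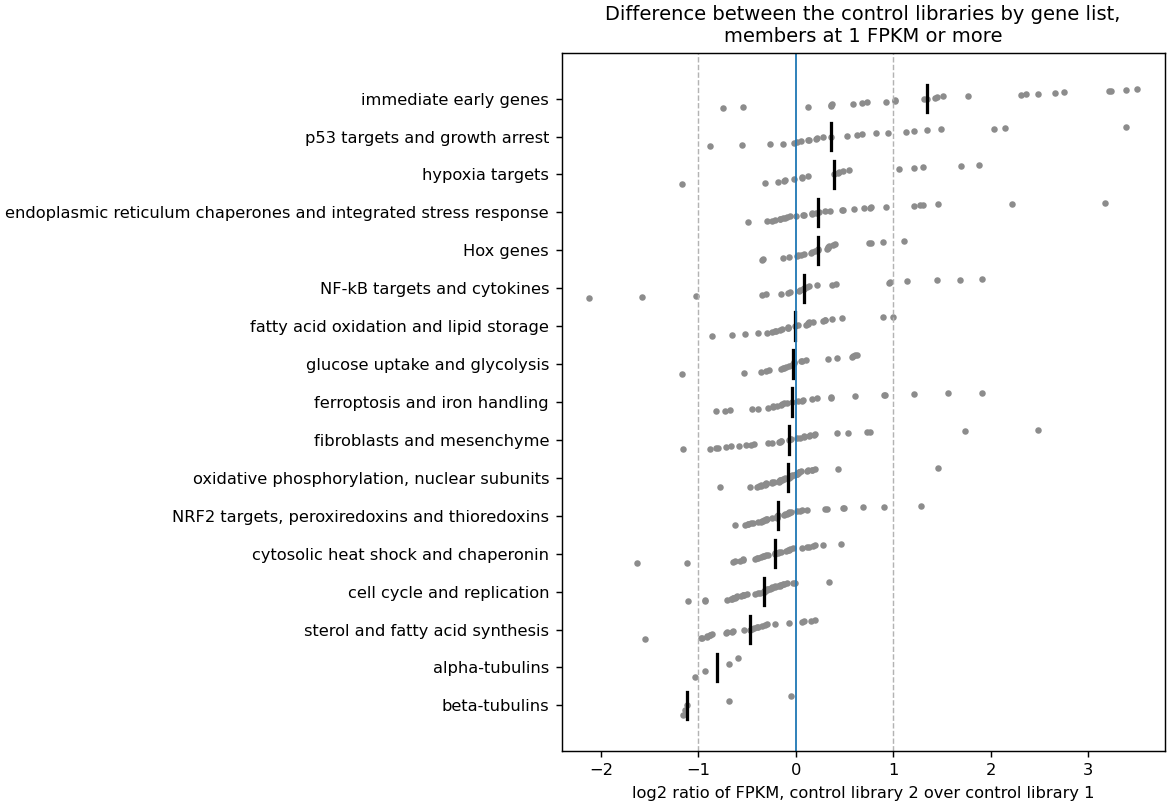
Log2 ratio of FPKM in control library 2 over control library 1 for each listed gene with a mean of 1 FPKM or more, by gene list; black bars are list medians, the solid line is equality and the dashed lines mark 2-fold. The immediate early list has the highest median (1.34) and the beta-tubulins the lowest (-1.12).

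The 1817 absent genes were unevenly spread over gene families. Of 93 odorant receptor genes with a row, 59 were absent, and of 39 vomeronasal receptor genes, 21, with 0 of either family at 1 FPKM or more. Among kallikreins 7 of 12 were absent, and among keratins with keratin-associated proteins 12 of 28. Among cytochrome P450 genes 21 of 73 were absent, against 10.8% of all genes. Solute carriers were nearer to the background, with 46 of 344 absent and 177 at 1 FPKM or more. By the pathway names in the deposited table (298 KEGG pathways with at least 20 genes), the lowest median FPKM values were those of olfactory transduction (64 of 128 genes absent), nicotine addiction (10 of 21) and neuroactive ligand-receptor interaction (64 of 211). The highest were those of the ribosome (241 FPKM), the proteasome (122) and oxidative phosphorylation (83.5). The glutamatergic synapse pathway had a median of 0.64 FPKM over 99 genes and the GABAergic synapse pathway 0.66 over 74, and these pathways include many broadly expressed signalling genes. The ferroptosis pathway had a median of 23.0 over 39 genes, and axon guidance 5.01 over 165. By chromosome, the share of absent genes was 17.3% on X (102 of 589) and lay between 7.92% on chromosome 11 and 12.9% on chromosome 13 among the autosomes.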

How the data were processed

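The authors deposited whole-number counts per gene without normalization, and FPKM values. In 13499 of 13502 genes counted in both control libraries, both tables imply the same gene length within 0.01 bases. Tools named in the submitters' processing notes are HISAT2, HTSeq, Cufflinks, Trimmomatic and DESeq, with the build mm10 and no versions or roles. Per the labels' protocols, RNA was taken with TRIzol, and the TruSeq Stranded mRNA kit, which selects polyadenylated RNA, was used for the libraries. Titles number the cells of the 4 samples HT22 to HT25, and all were taken as HT22. Of 8 value columns per table, 6 were not used.

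Genes were ranked by mean FPKM and placed by limits of 1, 10 and 100. There was no test, since the group has 1 labelled sample. Members and the 36 gene lists (1062 genes, of which 146 had no row) were chosen with earlier results of these data known. The rule for naming genes took the 25 highest genes, the defining genes and 4 highest members of each list, all isoform pairs and families, the genes nearest each limit, and the 10 genes of widest ratio between the libraries in each direction; some of these are not reported here, though counts over lists and pairs include them. Coordinates and promoters are from RefSeq GRCm38.p6 by Entrez identifier (16737 of 16846 matched). A check of promoter sequence by level is void, because 78.3% of genes, under 80%, had a start in the table. edgeR 4.0.16 in R 4.3.3 gave TMM factors, and Python 3.11.15, numpy 2.4.6, pandas 2.3.3 and matplotlib 3.10.9 were used.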

Additional observations from a re-analysis of the deposited data

How the results depend on the processing

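Of 237 values recomputed under other settings, 55 of 61 values that sum up a comparison and 166 of 176 others moved by less than 1.5 times. The number of absent genes was 2428 to 2733 from a single library, and 4916 genes had fewer than 10 counts in each library. Abundant genes numbered 2041 with TPM in place of FPKM, since the summed FPKM was 400619 and 383881, and 1574 with a limit of 50 FPKM. The 25 highest genes held 7.39% of the counts when ranked without length. With presence set at 10 counts in each library, 70 neuronal genes were present. The TMM factor of the pair moved all log2 ratios by -0.07, and the median of all genes turned from 0.04 to -0.024. No list median given above changed sign. Leaving out either library kept the count of isoform pairs at 16. No paired analysis was possible because only 1 group was described. The microglial count of 4 became 9 with TPM and 8 at a limit of 0.5 FPKM. With 1 labelled sample, the spread between separate cultures cannot be estimated. A count of 0 over both libraries allows up to 3 counts, so genes with under 3 counts lie within that limit.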
